A study of Homo sapiens with 4 samples.

Results

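CDKN1A, GADD45A, GADD45B, GADD45G, SESN1, SESN2, SESN3, DDIT4 and MDM2 are stress-responsive genes whose products slow the cell cycle, restrain mTOR signaling or tag proteins for degradation. They were picked by gene symbol, and each symbol matched 1 row, so that the account below covers 9 of the 61806 genes in the count table. Poly(A) RNA was sequenced from a breast cancer line, MDA-MB-231, and a melanoma line, MDA-MB-435, either as a control or after 6 h with CPYPP, an inhibitor of the DOCK family of Rac activators that the study used to induce paraptosis, a vacuolating form of cell death. The dose was 10 µM by the treatment description and the study's methods, although that description names MDA-MB-435 alone. All 4 groups carried the genotype label WT, and no transgene, knockdown or second agent is given for any of them. What the control cells received, such as a vehicle, is not given in the sources used here. Both are established tumor cell lines.

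Each condition had 1 library and no replicate, so the spread between cultures could not be estimated. Reads counted on genes ranged from 17196385 to 22663954 per library, and both CPYPP libraries held fewer than their controls. SOX10, a melanocyte lineage gene, had 0 counts in the MDA-MB-231 control and 1 after CPYPP, against 3031 and 707 for MDA-MB-435. The keratin gene KRT19 had 3953 and 2225 against 4 and 0, and the melanocyte gene DCT had 1 and 3 against 658 and 464. In the MDA-MB-231 control and the MDA-MB-435 control, the keratin genes KRT7 had 14488 and 625 counts, KRT8 12813 and 522, and KRT81 2873 and 1366. The remaining markers did not clearly separate the lines: in the same 2 controls, MITF had 1585 and 1405 counts, KRT18 8212 and 5740, PMEL 34 and 13, MLANA 8 and 9, and TYR 0 and 2. The pigment genes PMEL, MLANA and TYR were thus low or absent in MDA-MB-435, a line labelled as melanoma. The fall of SOX10 in that line to 0.301 of its control is given beside the changes below, and its part in them was not tested.

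As background, p21, the CDKN1A product, binds cyclin-dependent kinases and holds cells before S phase. GADD45 proteins bind CDK1, PCNA and the kinase MAP3K4, and link damage and stress to growth arrest. Sestrins restrain mTORC1 by binding and inhibiting GATOR2, and DDIT4 (REDD1) restrains it through the TSC complex, whereas MDM2 is a ubiquitin ligase. Several of these genes answer both to DNA damage and to the ATF4 branch of the integrated stress response.

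Within each line, fold changes are CPYPP over control counts after TMM scaling. The brackets hold 95% exact binomial intervals that cover counting error only, since no condition had a replicate. The library protocol describes no molecular identifiers, so the counts are of reads and not of molecules. For ratios of the folds of the lines, the brackets hold approximate 95% intervals from the summed Poisson variances on the log scale, again for counting error only. A change of over 2-fold was counted with no test, where either library of the line reached 10 counts. In bulk RNA, a change in the number of cells that express a gene and a change in RNA per cell cannot be told apart.

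After CPYPP, 5 of the 9 genes tested in MDA-MB-231 were higher by over 2-fold (CDKN1A, GADD45A, GADD45G, SESN2 and SESN3) and 0 were lower. Of all genes tested in that line, 5.40% were higher and 5.43% lower by over 2-fold. For MDA-MB-435, 5 of the 8 tested were higher (CDKN1A, GADD45A, SESN2, SESN3 and DDIT4) and 0 lower, against 4.02% higher and 9.75% lower among all genes. CDKN1A, GADD45A, SESN2 and SESN3, 4 genes in all, were higher in both lines, as were 1.23% of the genes tested in both. The median log2 fold change of the genes tested was 1.33 (n = 9) in MDA-MB-231 and 1.27 (n = 8) in MDA-MB-435, and that of all tested genes was -0.011 and -0.015.

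The lines were also taken as the only repeat of the treatment, in edgeR's quasi-likelihood test that used all 4 libraries, with the line as a block and 1 residual degree of freedom. Of the 8 genes in that test, 5 rose at a Benjamini-Hochberg adjusted p under 0.05, namely CDKN1A, GADD45A, SESN2, SESN3 and DDIT4, and 0 fell. Among all 16838 genes tested, 6.38% rose and 4.09% fell. DESeq2 called 3 of them (CDKN1A, GADD45A and SESN2) and gave SESN3 no adjusted p. DDIT4 passed edgeR's test through MDA-MB-435, as its values below show. The SE given with each common change below was derived from that test's F statistic, whose variance borrows from all genes. It is thus not a measure of the spread between the lines alone. DESeq2 gave larger SEs for the 5 genes: 0.148 for CDKN1A, 0.663 for GADD45A, 0.496 for SESN2, 0.743 for SESN3 and 1.66 for DDIT4.

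**Figure D1:**
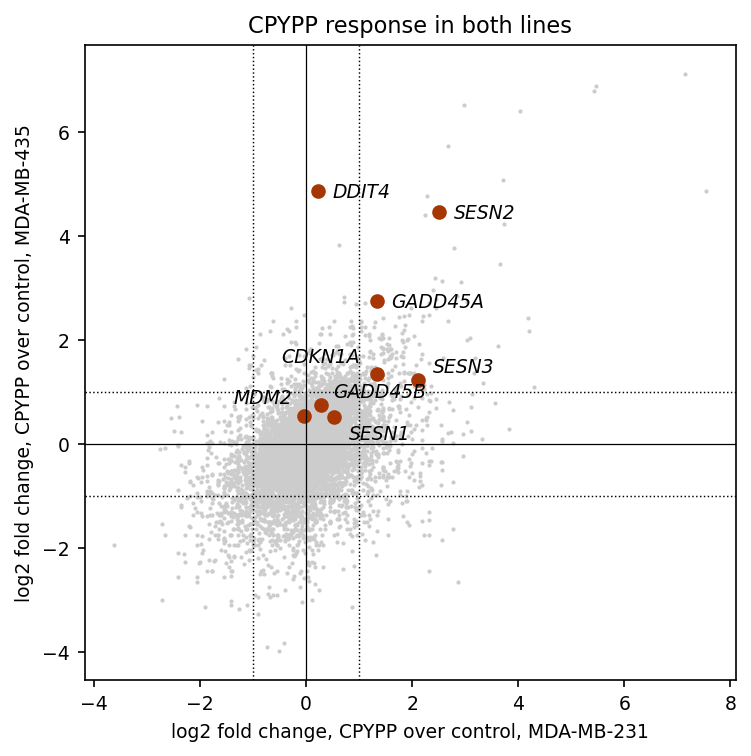
Log2 fold change after CPYPP in MDA-MB-231 (horizontal axis) and MDA-MB-435 (vertical axis) for the genes tested in both lines (grey) and for 8 of the 9 genes (red); GADD45G was not tested in MDA-MB-435, and dotted lines mark 2-fold. SESN2 is far out in both lines, DDIT4 only along the MDA-MB-435 axis, and MDM2, GADD45B and SESN1 lie inside 2-fold in both.

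The windows from 250 bases before to 50 bases after the RefSeq transcription start (GRCh38.p14) are shown for the genes whose changes differ most in pattern. SESN2 and DDIT4 had the largest folds, CDKN1A had the same fold in both lines, and MDM2 passed 2-fold in neither. Capitals mark matches, on either strand, to CCAAT (the CCAAT box, ATTGG on the other strand), TGATGNAA (a core of the element bound by ATF4 with C/EBP), TGACNNNGC (the core of the antioxidant response element), GAANNTTC (a heat shock element core), TGACGTCA (the CRE), TATAAA and CACGTG. The MDM2 window is at a downstream start inside the gene, and its TGACNNNGC match is TGACTCAGC.
SESN2, chr1:28259268-28259567, plus strand: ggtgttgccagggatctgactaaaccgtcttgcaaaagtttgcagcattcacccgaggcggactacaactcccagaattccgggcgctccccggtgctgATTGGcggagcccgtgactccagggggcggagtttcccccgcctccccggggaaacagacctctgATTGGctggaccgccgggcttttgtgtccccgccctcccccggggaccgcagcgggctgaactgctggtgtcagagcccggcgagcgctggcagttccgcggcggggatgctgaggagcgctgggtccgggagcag
DDIT4, chr10:72273674-72273973, plus strand: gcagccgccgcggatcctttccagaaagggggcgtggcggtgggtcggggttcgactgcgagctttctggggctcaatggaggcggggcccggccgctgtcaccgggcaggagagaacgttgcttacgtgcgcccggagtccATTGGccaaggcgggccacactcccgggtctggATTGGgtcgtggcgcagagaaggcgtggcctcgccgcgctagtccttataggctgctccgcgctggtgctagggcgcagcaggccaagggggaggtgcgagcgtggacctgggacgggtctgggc
CDKN1A, chr6:36678464-36678763, plus strand: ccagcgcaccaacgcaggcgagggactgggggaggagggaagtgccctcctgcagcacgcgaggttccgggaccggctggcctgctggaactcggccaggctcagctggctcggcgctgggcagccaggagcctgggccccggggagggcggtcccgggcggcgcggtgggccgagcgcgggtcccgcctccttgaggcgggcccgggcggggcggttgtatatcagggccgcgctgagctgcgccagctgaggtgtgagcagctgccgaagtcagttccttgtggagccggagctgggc
MDM2, chr12:68808767-68809066, plus strand: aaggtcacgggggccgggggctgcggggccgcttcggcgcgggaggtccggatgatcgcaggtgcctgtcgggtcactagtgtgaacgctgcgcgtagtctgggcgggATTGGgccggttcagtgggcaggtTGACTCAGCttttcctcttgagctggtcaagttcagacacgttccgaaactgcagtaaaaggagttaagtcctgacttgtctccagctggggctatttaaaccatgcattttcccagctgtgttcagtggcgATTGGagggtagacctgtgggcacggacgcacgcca

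SESN2 and DDIT4 each held 2 copies of CCAAT in the reverse orientation, starting 151 and 86 bases before the start in SESN2 and 108 and 75 bases before it in DDIT4. The CDKN1A window held 0 of the 7 motifs. Over the 13 windows of the 8 genes with an entry, some of which overlap, CCAAT was present in 10 windows, of 6 genes, and 34.6% of all 34943 windows of this length held it. MDM2 and SESN1 have several windows each, so the counts of genes do not compare with these shares. The counts of windows are not independent either. MDM2 windows starting at 68807922 and 68807927 share nearly all their bases and their matches, as do those starting at 68808767 and 68808774. TGACNNNGC was in 4 windows, of 3 genes (13.3% of all windows), CACGTG in 2 (7.23%), TGATGNAA in 1, of GADD45G (3.62%), and TATAAA in 1, of GADD45B (11.6%). GAANNTTC (6.79%) and TGACGTCA (1.84%) were found in 0 of the 13. These matches describe letters in the windows. GADD45A has no entry in the table used.

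CDKN1A (ENSG00000124762, chromosome 6, 36676460 to 36687337, plus strand, GRCh38) encodes the cyclin-dependent kinase inhibitor p21. It had 1599 counts in the MDA-MB-231 control and 2948 after CPYPP, a 2.52-fold increase [2.37 to 2.68]. In MDA-MB-435 it had 898 and 1753 counts, also 2.52-fold [2.32 to 2.73]. Per length, its level went from 23.8 to 59.7 FPKM and from 12.5 to 30.5 FPKM. The ratio of the folds, MDA-MB-435 over MDA-MB-231, was 1.00 [0.904 to 1.11], and CDKN1A stood higher in MDA-MB-231 both in the controls, by 1.91-fold [1.75 to 2.07], and after CPYPP, by 1.96-fold [1.85 to 2.08]. The common log2 change was 1.30 (SE 0.122, adjusted p = 5.68e-07 in edgeR's quasi-likelihood test). The lncRNA gene DINOL overlaps CDKN1A on the other strand and had at most 8 counts in a library.

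GADD45A (ENSG00000116717, chromosome 1, 67685201 to 67688334, plus strand) was, per length, the highest of the 9 genes in every library. It had 1219 and 2257 counts in MDA-MB-231, a fold of 2.53 [2.36 to 2.71]. In MDA-MB-435 it had 1136 and 5919 counts, a fold of 6.72 [6.30 to 7.17]. The control levels were close, at 28.3 FPKM in MDA-MB-231 and 24.6 FPKM in MDA-MB-435, whereas the CPYPP levels were 71.2 and 160 FPKM. The fold was thus 2.66 times larger in MDA-MB-435 [2.42 to 2.92], and the common log2 change was 2.02 (SE 0.206, adjusted p = 1.77e-06 in edgeR's quasi-likelihood test).

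GADD45B (ENSG00000099860, chromosome 19, 2476122 to 2478259, plus strand) stayed inside 2-fold. Its counts were 720 and 637 in MDA-MB-231, 1.21-fold higher after scaling [1.08 to 1.35], and 740 and 958 in MDA-MB-435, 1.67-fold higher [1.52 to 1.84]. The common log2 change of 0.48 (SE 0.156) had an adjusted p of 0.0557 in edgeR's quasi-likelihood test. GADD45G (ENSG00000130222, chromosome 9, 89605012 to 89606555, plus strand) had 7 and 15 counts in MDA-MB-231, a fold of 2.92 with an interval from 1.12 to 8.48. In MDA-MB-435 it had 0 counts in both libraries, which allows up to 0.0947 FPKM in the control and 0.118 FPKM after CPYPP, so no fold was formed there.

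Summed over the family, GADD45 RNA went from 43.6 to 89.9 FPKM in MDA-MB-231 and from 39.1 to 183 FPKM in MDA-MB-435. GADD45A made up 64.9% of it in the MDA-MB-231 control and 79.1% after CPYPP. In MDA-MB-435 its share was 63.0% and 87.3%. GADD45B made up nearly all of the remainder in each library.

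SESN2 (ENSG00000130766, chromosome 1, 28259518 to 28282491, plus strand), whose reverse CCAAT boxes are shown above, had the largest fold of the 9 genes in MDA-MB-231. Its counts there were 109 and 456, a fold of 5.71 [4.62 to 7.10] that ranked 81 from the top of 16441 genes. In MDA-MB-435 they were 160 and 2719, a fold of 21.9 [18.7 to 25.9] that ranked 11 of 16527. Per length it went from 1.41 to 7.99 FPKM in MDA-MB-231 and from 1.93 to 40.9 FPKM in MDA-MB-435. The fold in MDA-MB-435 was 3.84 times that in MDA-MB-231 [2.95 to 4.99], and the common log2 change was 3.54 (SE 0.287, adjusted p = 8.01e-08 in edgeR's quasi-likelihood test).

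SESN1 (ENSG00000080546, chromosome 6, 108984309 to 109094846, minus strand) had smaller folds. It had 229 and 243 counts in MDA-MB-231, 1.45-fold after scaling [1.20 to 1.74], and 130 and 144 in MDA-MB-435, 1.43-fold [1.12 to 1.82]. The common log2 change was 0.50 (SE 0.226, adjusted p = 0.196 in edgeR's quasi-likelihood test). SESN3 (ENSG00000149212, chromosome 11, 95165513 to 95232541, minus strand), known as a FOXO target, was low in every library. It had 42 and 133 counts in MDA-MB-231, a fold of 4.32 [3.03 to 6.27], and 15 and 27 in MDA-MB-435, a fold of 2.32 [1.19 to 4.69]. Its common log2 change was 1.74 (SE 0.428, adjusted p = 0.0119 in edgeR's quasi-likelihood test), and DESeq2 filtered it out before adjustment. The annotated gene LNCRNA-IUR covers all 67029 bases of SESN3 on the other strand and had 14 and 4 counts in MDA-MB-231, against 11 and 14 for MDA-MB-435. Whether counting used strand is not given in the sources used here, and in MDA-MB-435 those counts are of the same order as SESN3's own.

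In the MDA-MB-231 control, SESN1 and SESN2 each made up 47.0% of the summed sestrin FPKM, and SESN3 5.93%. After CPYPP, SESN2 made up 74.1% and SESN1 18.8%. In MDA-MB-435, SESN2 already held 70.6% in the control and reached 97.2%, while SESN1 went from 27.3% to 2.45%. The sum itself went from 2.99 to 10.8 FPKM in MDA-MB-231, 3.61-fold, and from 2.73 to 42.0 FPKM in MDA-MB-435, 15.4-fold.

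**Figure D2:**
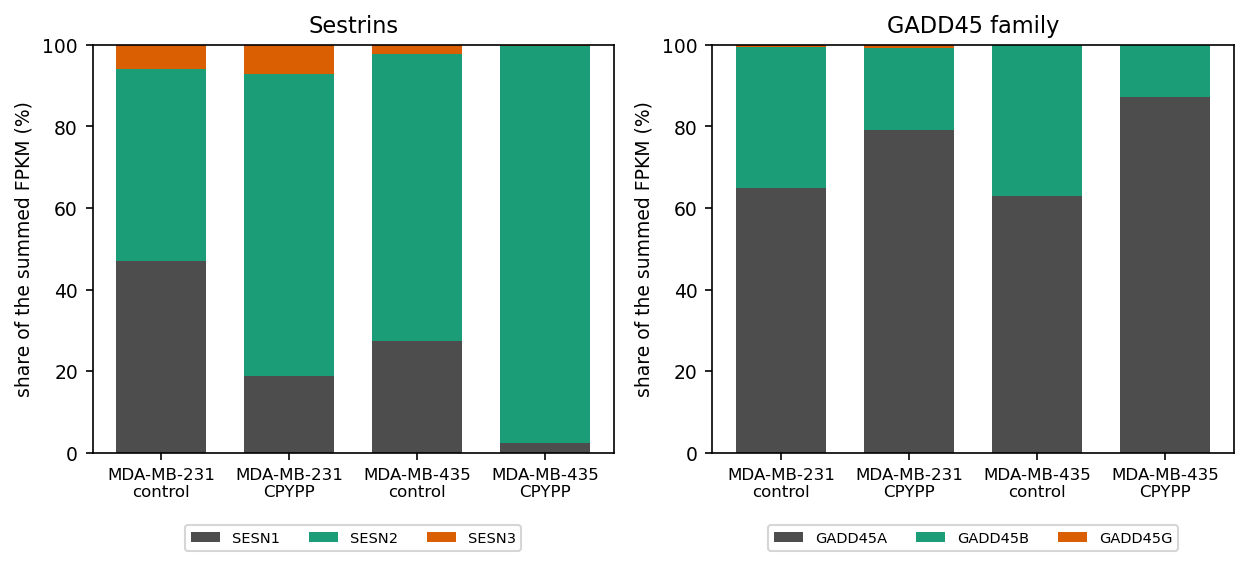
Share of each member in the summed FPKM of the sestrins (left) and of the GADD45 family (right) in each of the 4 libraries. SESN2 went from 47.0% to 74.1% in MDA-MB-231 and from 70.6% to 97.2% in MDA-MB-435, and GADD45A from 64.9% to 79.1% and from 63.0% to 87.3%.

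DDIT4 (ENSG00000168209, chromosome 10, 72273919 to 72276036, plus strand) differed most between the lines. It had 1186 and 1008 counts in MDA-MB-231, 1.16-fold higher after scaling [1.07 to 1.26]. In MDA-MB-435 it had 92 and 2066 counts, a fold of 29.0 [23.5 to 36.1] that ranked 8 of 16527. The control level was 25.0 FPKM in MDA-MB-231 and 1.81 FPKM in MDA-MB-435, a 13.8-fold difference [11.1 to 17.2]. After CPYPP the levels were 28.9 and 50.8 FPKM, so that the order of the lines turned and MDA-MB-435 stood 1.76-fold higher [1.63 to 1.90]. The ratio of the folds was 25.0 [19.9 to 31.3], which goes beyond counting error but has no replicate check. The common log2 change of 2.24 (SE 0.611) had an adjusted p of 0.0225 in edgeR's quasi-likelihood test, which became 0.0962 with upper-quartile scaling and 0.510 in DESeq2.

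MDM2 (ENSG00000135679, chromosome 12, 68808177 to 68845544, plus strand), which encodes a ubiquitin ligase, had 2956 and 2119 counts in MDA-MB-231, a fold of 0.978 [0.925 to 1.03]. In MDA-MB-435 it had 1091 and 1231 counts, a fold of 1.45 [1.34 to 1.58]. Its level went from 15.9 to 15.5 FPKM in MDA-MB-231 and from 5.48 to 7.71 FPKM in MDA-MB-435. In the controls MDM2 stood 2.90-fold higher in MDA-MB-231 [2.70 to 3.11]. The common log2 change of 0.22 (SE 0.135) had an adjusted p of 0.379 in edgeR's quasi-likelihood test. CPM overlaps the end of MDM2 on the other strand over 3348 bases and had at most 60 counts in a library.

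**Figure D3:**
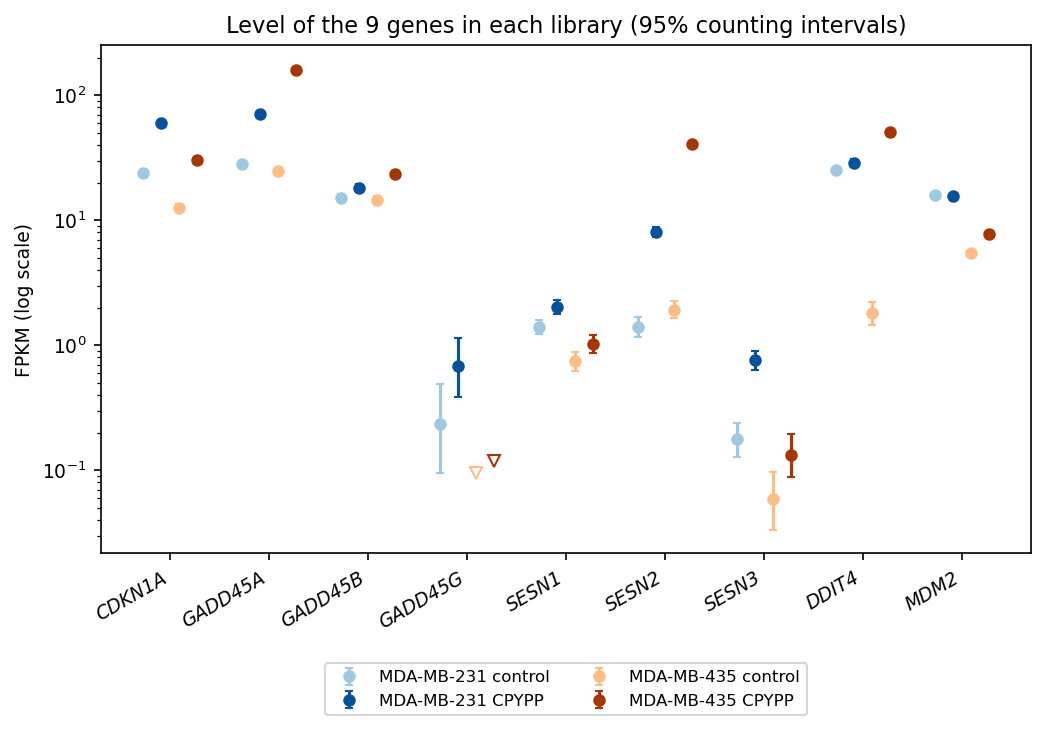
Level of each of the 9 genes, in FPKM on a log axis, for MDA-MB-231 (blue) and MDA-MB-435 (orange), control in the light and CPYPP in the dark shade, with 1 library per point and bars for 95% Poisson counting intervals. Open triangles stand at the level of 3 counts where GADD45G had 0 counts. DDIT4 starts at 25.0 FPKM in MDA-MB-231 and 1.81 FPKM in MDA-MB-435 and ends at 28.9 and 50.8 FPKM.

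By FPKM, the order in the MDA-MB-231 control was GADD45A, DDIT4, CDKN1A, MDM2, GADD45B, SESN2, SESN1, GADD45G and SESN3, and the counting intervals overlapped for DDIT4 with CDKN1A, MDM2 with GADD45B, SESN2 with SESN1, and GADD45G with SESN3. After CPYPP in MDA-MB-231, CDKN1A stood above DDIT4 and GADD45B above MDM2, and only SESN3 and GADD45G overlapped. In the MDA-MB-435 control, the order was GADD45A, GADD45B, CDKN1A, MDM2, SESN2, DDIT4, SESN1, SESN3 and GADD45G, and the intervals overlapped for SESN2 with DDIT4 and for SESN3 with GADD45G. After CPYPP in that line, DDIT4 and SESN2 stood directly below GADD45A and above CDKN1A, and again only SESN3 and GADD45G overlapped.

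Genes with the most similar pair of log2 fold changes were sought among 12529 genes with at least 100 counts over the 4 libraries. For SESN2 these were SLC7A11, the cystine transporter subunit (distance 0.27 on the log2 scale), the stress transcription factor ATF3 (0.39) and NMRAL2P (0.75). For GADD45A they were RGS2 (0.40), DDIT3, which encodes CHOP (0.50), and MIR29B2CHG (0.51). Few genes lay within 0.5 of the genes with large folds: 2 for SESN2, 1 for GADD45A and 0 for DDIT4. The nearest to DDIT4, HTRA3, lay at 1.11, ahead of ATF3 (2.07) and SLC7A11 (2.09). CDKN1A had 88 genes within 0.5, led by MAFG (0.066), GSR (0.074) and KLHL24 (0.087), and SESN3 had 21, led by YPEL2 (0.10), ICOSLG (0.13) and SNAI1 (0.15).

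The other genes of each pathway give the setting of these changes. Of the other 7 CDK inhibitors, 5 could be tested for MDA-MB-231 and all 7 for MDA-MB-435, and 0 were higher by over 2-fold in either line. CDKN1C was lower in MDA-MB-435 (39 and 14 counts). In the common test 0 rose and 3 fell by edgeR's quasi-likelihood test: CDKN1B, encoding p27, with a log2 change of -0.66 (adjusted p = 0.0154), CDKN2C with -0.76 (adjusted p = 0.00196) and CDKN2D with -0.64 (adjusted p = 0.0405). CDKN2A had 0 counts in both MDA-MB-231 libraries and 1894 and 1354 in MDA-MB-435.

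Of 11 genes listed as partners of GADD45 proteins, whether or not they bind directly, all were tested and 0 were past 2-fold in either line. For a list of this length that does not stand apart from the shares of all genes given above. In the common test, CCNB1 fell by 0.47 (adjusted p = 0.0174) and MAP2K3 fell by 0.42 (adjusted p = 0.0391) on the log2 scale in edgeR's quasi-likelihood test. MAP2K6 was at 1.19 of its control in MDA-MB-231 and at 0.510 in the other line, and MAPK11 at 0.842 and 0.739.

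DDIT4 and the sestrins are known to act on mTORC1. In the list of TSC and mTORC1 core genes, 1 of 10 tested was higher in MDA-MB-231, DEPTOR with 8 and 14 counts, and 0 of 9 in MDA-MB-435. TSC1 was 1.76-fold and 1.55-fold higher, a common log2 change of 0.70 (adjusted p = 0.00203 in edgeR's quasi-likelihood test), and 2 of 9 genes rose in that test. TBC1D7 was at 0.900 and 1.60 of its control, and DDIT4L, a paralog of DDIT4, had 17 and 7 counts in MDA-MB-231 and 0 in the other line. The next list covers GATOR, KICSTOR and amino acid sensors, of which sestrins bind GATOR2. Of its 14 tested genes, 0 were past 2-fold in either line and 1, BMT2, rose in the common test. The folds of CASTOR2 were 1.87 and 0.865, those of KICS2 0.582 and 0.633, and those of NPRL2 0.649 and 0.830. Among 12 Rag and LAMTOR genes, FNIP2 was past 2-fold in MDA-MB-231 (2.03-fold, and 1.86-fold in MDA-MB-435). FNIP1 and FNIP2, which act with folliculin, rose in the common test, and 1 gene of this list, RRAGA, fell. FLCN, encoding folliculin, had 970 and 1069 counts in MDA-MB-231, against 521 and 521 for MDA-MB-435, and RRAGD had folds of 1.33 and 1.84. Of the AMPK subunit and kinase genes, 7 could be tested for MDA-MB-231 and 6 for MDA-MB-435, with 0 past 2-fold and 0 of 7 called in the common test (edgeR's quasi-likelihood test). PRKAG2 had folds of 0.829 and 0.685, PRKAB2 of 1.28 and 1.43 and PRKAG1 of 1.17 and 0.868, while PRKAA2 had a fold of 1.33 in MDA-MB-231 and 0 counts in MDA-MB-435.

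Among 11 transcription factors of the stress responses, MDA-MB-231 had 3 higher and MDA-MB-435 had 4, with 0 lower, and 5 rose in the common test. ATF3 had folds of 4.86 and 27.2 and DDIT3 of 2.05 and 5.08, with the larger fold in MDA-MB-435 as for SESN2 and GADD45A. ATF4, the transcription factor of the integrated stress response, was 1.51-fold and 2.80-fold higher, CEBPB 1.64-fold and 2.40-fold, and NFE2L2 1.30-fold and 1.95-fold. TFEB had 51 and 81 counts in MDA-MB-231, against 216 and 118 for MDA-MB-435.

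**Figure D4:**
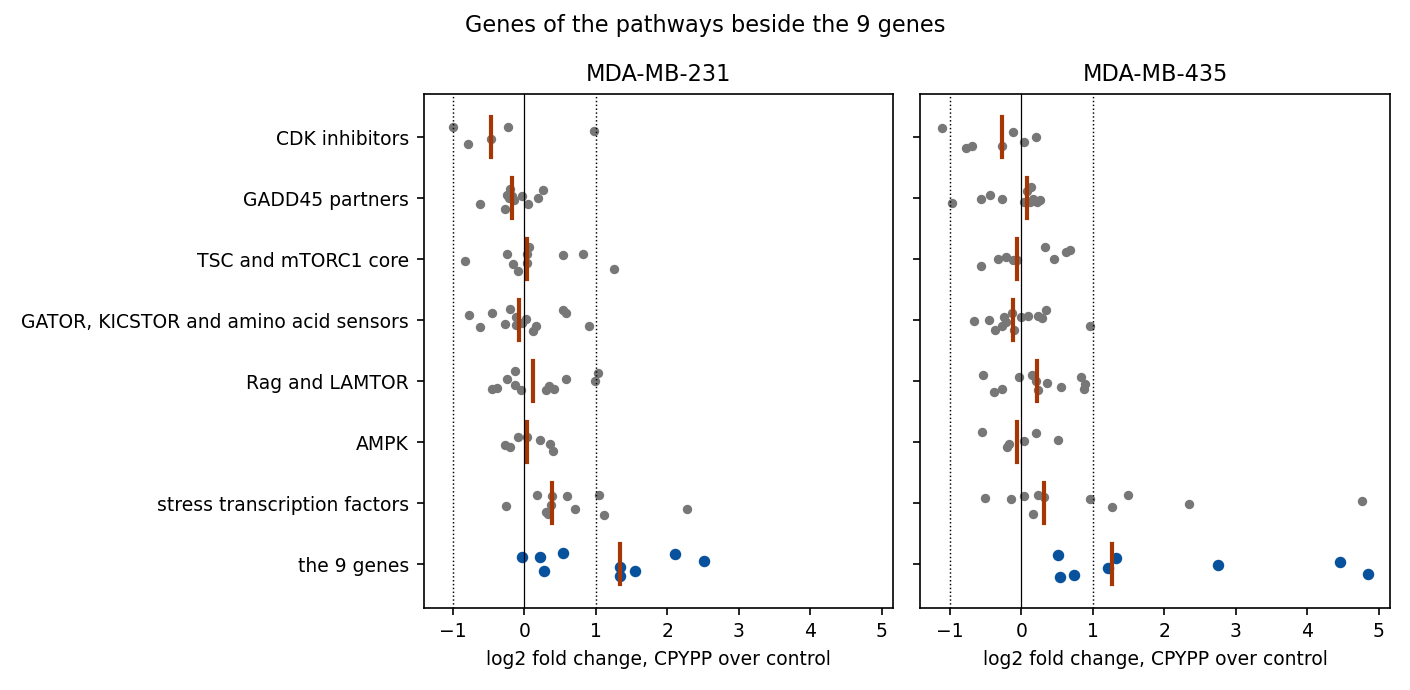
Log2 fold change after CPYPP of the tested genes of 7 lists (grey) and of the 9 genes themselves (blue) in MDA-MB-231 (left) and MDA-MB-435 (right); red bars are medians and dotted lines mark 2-fold. The median of those of the 9 genes that were tested lies at 1.33 (n = 9) and 1.27 (n = 8), and ATF3 is the grey point farthest to the right in both lines.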

How the data were processed

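The authors deposited raw read counts per gene for 4 libraries, with positions, exon lengths and pathway annotation. The submitters' processing notes name cutadapt 1.9.1, HISAT2 2.2.1, HTSeq 0.6.1, DESeq2 and GRCh37.p13, without roles. The positions are nonetheless those of GRCh38: 58196 of 58254 identifiers shared with GENCODE release 29 overlap there. Strand use in counting is not given in the sources used here.

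Counts were scaled by TMM (edgeR 4.0.16, R 4.3.3), within a line for folds and over the 4 libraries for levels, cross-line ratios and the common test. FPKM was computed here from the deposited counts and exon lengths. Counts of 3 or fewer were set to 3 in folds. The common test was edgeR's quasi-likelihood test after filterByExpr, and DESeq2 1.42.0 was an alternative, as were other scalings, filters and thresholds. The common test was tried on simulated counts that gave both lines the same expression profile and the same changes. The real lines differ in both, so that trial does not show how the test behaves on them.

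The 9 genes and the lists were chosen with earlier results of these data known, and some items are not reported here. In each pathway list reported, the genes named are those past 2-fold the same way in both lines and the 4 others with the largest change. The motifs, CDKN2A, RRAGA and the markers KRT18 and TYR were named after values were seen. The 3 most similar genes were named for each of the 9 past 2-fold in at least 1 line, where both folds existed. No count column lacked a sample, and the counts, exon lengths and positions were used.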

Additional observations from a re-analysis of the deposited data

Results flagged for a closer look

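MDM2 was the 1 gene of the 9 whose fold changes had opposite signs in the lines. Its log2 fold change was -0.0315 in MDA-MB-231, where the counting interval of the fold (0.925 to 1.03) included no change, and 0.54 in MDA-MB-435 (fold 1.34 to 1.58). The signs were the same with each of the other scalings. With 1 library per condition, the difference between the lines was not tested.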

How the results depend on the processing

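The count of genes past 2-fold, 5 in each line, stayed at 5 with total counts, upper-quartile scaling or DESeq2 size factors, and was 4 in each line with at least 30 counts or with the interval wholly beyond 2-fold. A fold over 4 left 2 for MDA-MB-231 and 3 for MDA-MB-435. Shares of all genes are not given here for that fold or for the set coefficients of variation that follow. When the biological coefficient of variation was set to 0.2, the counts were 2 and 3. With 0.4 they were 0 and 2, and at unadjusted p under 0.05 edgeR's exact test then gave 2 genes in MDA-MB-231. For the common test, DESeq2 gave 3 (4 at an unadjusted p under 0.05) and upper-quartile scaling 4 in place of 5, and with no filter GADD45B also passed (adjusted p = 0.0461 in edgeR's quasi-likelihood test). Among all genes, 1074 of 16838 rose in the main fit and 575 in DESeq2. DESeq2 gave 32210 genes a p-value but, as for SESN3, not all of them an adjusted p, so no share is formed there. With upper-quartile scaling 732 of 16748 rose, and with no filter 1146 of 32210. With no block for the line, edgeR's quasi-likelihood test gave 0, and 2 at an unadjusted p under 0.05. That fit called 0 of all 16838 genes, 171 of which had an unadjusted p under 0.05. The causes were not tested. Total counts moved the median of all tested genes in MDA-MB-435 to -0.164 on the log2 scale and upper-quartile scaling to -0.126, and of 51 recomputed folds the 5 that left their counting interval were in that line. No direction of a gene past 2-fold changed. The common test already pairs control and CPYPP within a line, and with 1 library per condition no library was left out. GADD45G and, in MDA-MB-435, SESN3 rest on few counts.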
